A study of Arabidopsis thaliana with 6 samples.

Results

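Glucosinolate regulators of the MYB and MYC families were followed in rosettes of Arabidopsis thaliana through 6 probe sets of the Affymetrix ATH1 array, 1 for each of MYB28, MYB29, MYB51, MYC2, MYC3 and MYC4. The members were listed by probe set, and they are 6 of the 22810 probe sets in the table. The platform annotation used here lists 2 of them, 248864_at as MYC3 and 254693_at as MYC4. The other 4 take their gene from the member list alone: 247549_at for MYB28 (AT5G61420), 250598_at for MYB29 (AT5G07690), 255753_at for MYB51 (AT1G18570) and 261713_at for MYC2 (AT1G32640). That assignment could not be checked against a probe sequence here. MYC3 is AT5G46760 and MYC4 is AT4G17880 in the RefSeq gene table of the assembly TAIR10.1.

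There were 2 genotypes with 3 arrays each. The double mutant in the genes for the APS kinases APK1 and APK2 came from the insertion lines salk_053427 crossed with salk_093072, and the wild type was Col-0. The labels name no treatment of either genotype. Each array held RNA of its own pool of 10 whole rosettes, harvested without the root at 35 days, before bolting and 4 h after lights on, from plants kept in 10 h of light and 14 h of dark at 22 °C. Because whole rosettes were pooled, fewer cells that express a gene and less RNA of it per cell cannot be told apart. Neither APK1 nor APK2 has a probe set named in the annotation table, so the genotype labels were not checked against the disrupted genes.

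Glucosinolates are sulfur-rich defence compounds of the Brassicaceae, made from methionine (aliphatic) or tryptophan (indolic), and their last core step transfers sulfate from PAPS, the product of APS kinase. MYB28 and MYB29 activate the aliphatic pathway and MYB51 activates the indolic pathway. MYC2, MYC3 and MYC4 are basic helix-loop-helix factors that act in jasmonate signalling. They are held back by JAZ repressors and bind the glucosinolate MYB proteins, and plants that lack all of them make almost no glucosinolates. The comparison asked whether the transcripts of these regulators differ between the double mutant and the wild type, and whether the MYB and MYC factors differ in this.

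In the double mutant 3 of the 6 regulators rose, MYB29 by the most, and none fell. MYB29 rose 2.48-fold (95% interval 2.01 to 3.05, n = 3 per genotype), MYC2 1.37-fold (1.14 to 1.65) and MYB28 1.34-fold (1.16 to 1.55). MYB51 did not pass the test, with a change of similar size, and neither did MYC3 and MYC4. The test was limma's moderated test on log2 signal across 13848 probe sets, two-sided, with Benjamini-Hochberg adjustment and a threshold of 0.05. It called 11.3% of those probe sets, 5.79% higher in the double mutant (802) and 5.55% lower (769). The share of 3 calls among 6 members was larger than this background. But the members were chosen with earlier results of these data known, so the larger share is no test of the set. The counts over all probe sets depended on single arrays. Without double-mutant replicate 3, 491 probe sets were called higher. From 439 to 505 were called lower without that array or without any 1 of the wild-type arrays. Of the 6 members 1, MYB29, was still called without wild-type replicate 3. All 6 members had a signal above their array's 40th percentile, which lay between 16.9 and 19.4, on all 6 arrays, so none is reported near that limit. A signal here is the authors' MAS5 value on a linear scale, and signals of different probe sets cannot be ranked against each other.

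MYB29, an activator of aliphatic glucosinolate genes, had signals of 281, 272 and 299 on the double-mutant arrays, against 129, 131 and 88.4 on the wild-type arrays. The genotypes did not overlap, and the lowest double-mutant array was 2.08 times the highest wild-type array. The mean signal was 284 ± 13.6 in the double mutant and 116 ± 24.1 in the wild type (SD, n = 3 each). The log2 change was 1.31 ± 0.14 (SE; limma, adjusted p = 3.76e-05), and 1.14% of tested probe sets had a larger one. The wild-type arrays spread more than the double-mutant arrays, with a highest value 48.0% above the lowest in the wild type and 9.83% above it in the double mutant. Wild-type replicate 3 gave the low value. Without it the log2 change was 1.12 (limma, adjusted p = 4.46e-05).

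MYB28, the other main activator of the aliphatic pathway, had signals of 265, 228 and 240 in the double mutant and 187, 191 and 170 in the wild type. The genotypes did not overlap here either, but the lowest double-mutant array was 1.196 times the highest wild-type array. The mean signal was 245 ± 18.9 in the double mutant and 183 ± 11.2 in the wild type (SD, n = 3 each), a log2 change of 0.42 ± 0.10 (SE; limma, adjusted p = 0.0131). A larger change was found in 7.91% of tested probe sets. The call ended without wild-type replicate 3 (log2 change 0.37, adjusted p = 0.0721) and with a variance prior that ignores signal level (adjusted p = 0.0636), and over all alternatives the adjusted p lay between 0.0116 and 0.0721 (limma).

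MYB51, an activator of indolic glucosinolate genes, had signals of 56.0, 59.5 and 68.3 in the double mutant and 39.3, 42.6 and 51.8 in the wild type. All double-mutant arrays lay above all wild-type arrays, the nearest pair being 1.08-fold apart. The mean signal was 61.3 ± 6.34 in the double mutant and 44.6 ± 6.47 in the wild type (SD, n = 3 each). The log2 change of 0.46 ± 0.16 (SE) did not pass the adjusted threshold (limma, adjusted p = 0.0834). Its 95% interval, which is not adjusted for the number of probe sets, ran from 1.09-fold to 1.75-fold. In no alternative setting did the adjusted p fall under 0.05, the lowest being 0.0591 (limma).

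**Figure D1:**
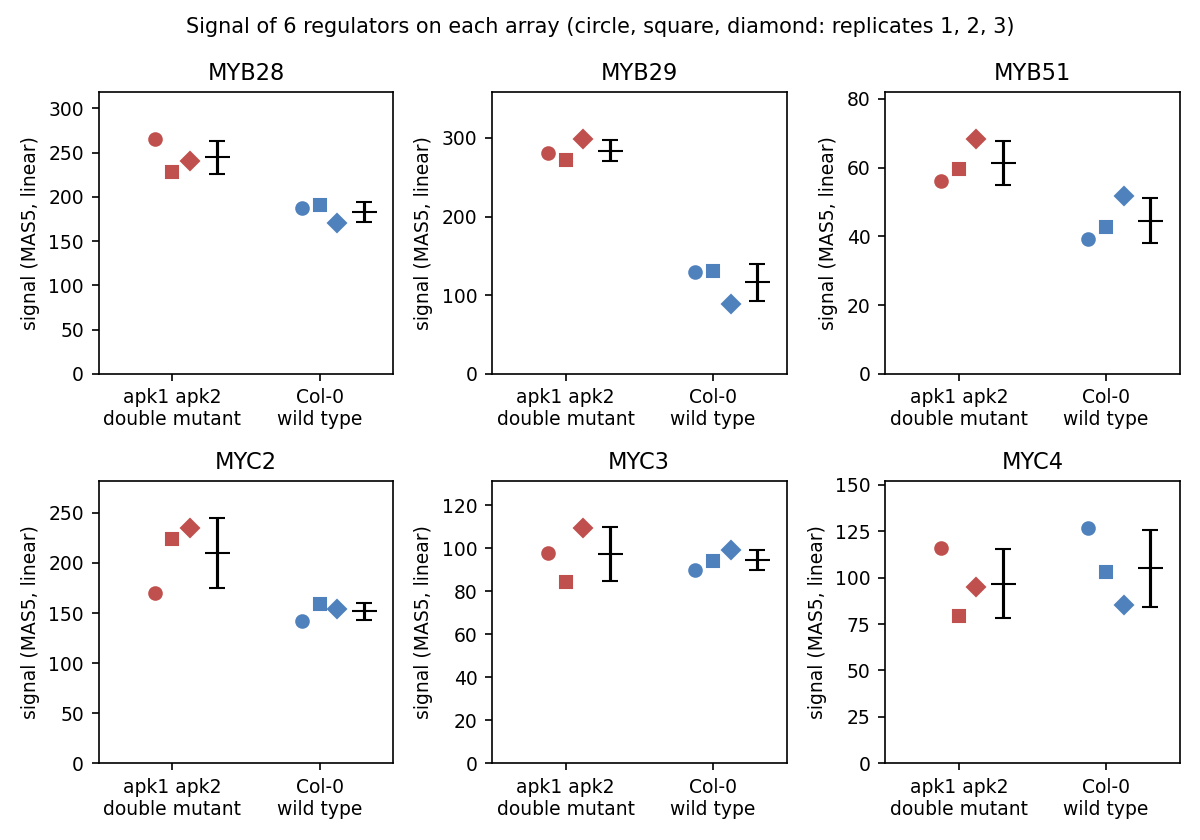
Signal of each regulator (y axis, linear MAS5 signal from 0) on the 3 double-mutant arrays (red, left) and the 3 wild-type arrays (blue, right). Black marks are means with SD. The genotypes do not overlap for MYB28, MYB29, MYB51 and MYC2, and they do for MYC3 and MYC4.

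MYC2, the factor best known for driving the wounding branch of jasmonate responses, had signals of 170, 224 and 235 in the double mutant and 142, 159 and 154 in the wild type. Double-mutant replicate 1 lay close to the wild type, 1.07-fold above the highest wild-type array, and replicates 2 and 3 lay well above it. The mean signal was 210 ± 35.0 in the double mutant and 152 ± 8.55 in the wild type (SD, n = 3 each), a log2 change of 0.45 ± 0.12 (SE; limma, adjusted p = 0.0312). The call ended when any array other than double-mutant replicate 1 was left out. The adjusted p was 0.102 and 0.136 without double-mutant replicates 2 and 3, and 0.108, 0.0604 and 0.0835 without wild-type replicates 1, 2 and 3 (limma). In the same order the log2 change was 0.40 and 0.37, and 0.41, 0.49 and 0.47. The SE, 0.12 with all arrays, was 0.13 to 0.15 in these fits, which have fewer arrays. Without double-mutant replicate 1 the log2 change was 0.60 (adjusted p = 0.00297, the lowest over all alternatives). A variance prior that ignores signal level also ended the call (adjusted p = 0.119).

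MYC3, which shares much of its function with MYC2, had signals of 97.7, 84.2 and 109 in the double mutant and 89.8, 94.0 and 99.1 in the wild type. The double-mutant arrays lay on both sides of the wild-type arrays. The means were 97.1 ± 12.5 in the double mutant and 94.3 ± 4.66 in the wild type (SD, n = 3 each). The fold was 1.02, with a 95% interval of 0.85 to 1.23 (limma, adjusted p = 0.906).

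MYC4, the remaining factor of this trio, had signals of 116, 79.2 and 95.1 in the double mutant and 127, 103 and 85.5 in the wild type. These overlapped over most of their range, with means of 96.8 ± 18.6 in the double mutant and 105 ± 20.7 in the wild type (SD, n = 3 each). The fold was 0.92, with a 95% interval of 0.72 to 1.18 (limma, adjusted p = 0.734). The sign of these small changes depended on single arrays: the log2 change of MYC4, -0.12 with all arrays, was 0.020 without double-mutant replicate 2 and 0.028 without wild-type replicate 1, and that of MYC3, 0.035 with all arrays, was -0.054 without double-mutant replicate 3. These intervals do not show that MYC3 and MYC4 stayed level.

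Between the genotypes 4 of the 6 regulators did not overlap, all of them with the double mutant higher: the 3 MYB factors and MYC2. The same held for 28.7% of the 13848 probe sets, 13% with the double mutant higher and 15.7% with it lower.

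The split between MYB and MYC factors was not clean. The mean log2 change was 0.73 over the 3 MYB factors and 0.12 over the 3 MYC factors, but MYB28 and MYB51 alone averaged 0.44, close to the 0.45 of MYC2. Within an array, the mean log2 signal of the MYB factors minus that of the MYC factors was 0.37, 0.43 and 0.34 in the double mutant and -0.25, -0.18 and -0.25 in the wild type. The arrays of the genotypes were apart in this measure, by 0.61 in the mean. Without MYB29 the difference was 0.32, and without MYC2 it was 0.77, so the gap between the families rested on MYB29 to a large extent. Leaving out members was added after the values were seen.

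Ratios of 1 MYB to 1 MYC signal within an array, which cancel the scaling of the array, gave 9 pairs. The exact two-sided permutation test of 3 against 3 arrays cannot give a p under 0.1, so no pair could pass. In 6 pairs the genotypes did not overlap, with the double mutant higher, and the exact permutation p was 0.1 (0.15 adjusted over the 9 pairs). These were MYB29 over each MYC factor, MYB28 over MYC3 and MYC4, and MYB51 over MYC3. The 9 pairs reuse the same 6 probe sets, so they are not separate observations. The share of such separation among ratios of other probe sets was not computed. The log2 ratio of MYB29 to MYC4 was 1.27, 1.78 and 1.65 in the double mutant and 0.03, 0.34 and 0.05 in the wild type, the widest gap of the 9 pairs, with a mean difference of 1.43. The ratio of MYB29 to MYC3 differed by 1.27 and that of MYB29 to MYC2 by 0.86.

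The 2 smallest differences both involved MYC2. The log2 ratio of MYB28 to MYC2 was 0.65, 0.03 and 0.03 in the double mutant and 0.40, 0.27 and 0.14 in the wild type, a mean difference of -0.03 (exact permutation p = 1). The ratio of MYB51 to MYC2 differed by 0.01 (exact permutation p = 1). Against MYC4, MYB51 differed by 0.58 with overlapping arrays (exact permutation p = 0.2, adjusted over the 9 pairs 0.257). With so few arrays these ratios do not show that MYB28, MYB51 and MYC2 changed alike.

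**Figure D2:**
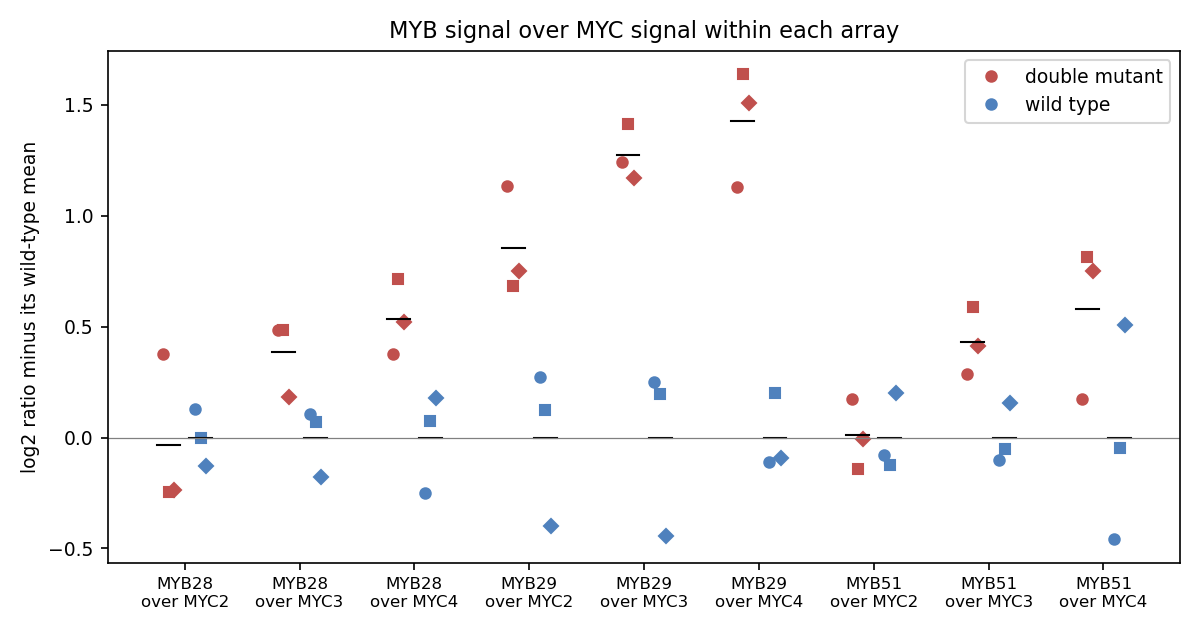
Log2 ratio of a MYB signal to a MYC signal within each array, minus the wild-type mean of that ratio (y axis), for the 9 pairs (x axis). Red points are double-mutant arrays, blue points wild-type arrays, shapes mark replicates 1, 2 and 3, and black lines are means. The 3 ratios with MYB29 differ by 0.86 to 1.43, and MYB28 and MYB51 over MYC2 by -0.03 and 0.01.

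Within each family, too, the ratios of some pairs of factors did not overlap between the genotypes. MYB28 and MYB29 serve the same branch, yet the log2 ratio of MYB29 to MYB28 was 0.08, 0.25 and 0.31 in the double mutant and -0.53, -0.55 and -0.94 in the wild type. The genotypes were apart in this ratio on all arrays, by 0.89 in the mean. The ratio of MYB29 to MYB51 was also apart on all arrays, by 0.85 in the mean, while that of MYB51 to MYB28 overlapped between genotypes and differed by 0.04. Among the MYC factors, the log2 ratio of MYC2 to MYC3 was 0.796, 1.414 and 1.103 in the double mutant and 0.663, 0.757 and 0.637 in the wild type, again with no overlap and with a mean difference of 0.42. The ratio of MYC2 to MYC4 differed by 0.57 and that of MYC3 to MYC4 by 0.15, both with overlapping arrays. These ratios within a family were computed after the values were seen and were not tested. They reuse the signals behind the member changes, so they are not separate observations. How often ratios of other probe sets separate the genotypes was not computed.

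Over the 6 arrays the log2 signals of MYB28 and MYB29 had a Pearson correlation of 0.96, that of MYB51 and MYC2 was 0.87, and that of MYB29 and MYC2 was 0.79. These 6 points share the difference between genotypes, so they describe it again. MYC3 and MYC4 correlated at 0.07, and MYC4 ran against MYC2 (-0.58) and MYB51 (-0.57).

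Other regulators of glucosinolate synthesis could hardly be followed. Of a list of 12, among them MYB34, MYB76, MYB122 and SLIM1, 1 had a named probe set. This was SDI2 (AT1G04770), a sulfur-deficiency-induced protein of the group that holds back MYB28-driven glucosinolate synthesis. Its signals were 159, 109 and 122 in the double mutant and 147, 153 and 173 in the wild type, which overlap. Its log2 change was -0.29 (limma, adjusted p = 0.211). Without double-mutant replicate 1 the change was -0.45 with an adjusted p of 0.0318, the lowest of the range up to 0.490 over the alternatives. None of the 20 genes listed for jasmonate signalling and MYC partners, COI1 and the JAZ repressors among them, had a named probe set, nor did any of the 13 genes for jasmonate synthesis and MYC-dependent responses.

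Genes downstream of the MYB factors were named for a small part of their lists. These lists were chosen with earlier results of these data known, and 5.79% of all tested probe sets were called higher. Of 28 aliphatic biosynthesis genes 5 were tested, and all 5 rose. Their median log2 change was 1.29, against -0.02 over all tested probe sets. The smallest of these changes was 1.02, for the side-chain dioxygenase GSL-OH (AT2G25450), whose signal was 2061, 2240 and 2153 in the double mutant and 1099, 1090 and 994 in the wild type. The largest was 2.05, for BCAT4, which starts methionine chain elongation. The log2 change of MYB29 lay inside this range and that of MYB28 below it. GSTU20, a glutathione transferase, had a log2 change of 1.61, UGT74C1 (AT2G31790), a glucosyltransferase, 1.18, and UGT74B1, a glucosyltransferase of both branches, 1.29 (limma, adjusted p between 3.43e-09 and 1.07e-05 for the 5 genes). AOP3 was named but dim, at 5.07 to 12.8 in the double mutant and 3.67 to 9.68 in the wild type, and was not tested.

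On the indolic list 2 of 18 genes were tested and both rose, UGT74B1 and the indole-3-glycerol phosphate synthase gene AT2G04400. UGT74B1 is the probe set already counted on the aliphatic list, so it is not a further observation. AT2G04400 acts in tryptophan synthesis, and its signal was 633, 856 and 889 in the double mutant and 272, 364 and 364 in the wild type, a log2 change of 1.25 (limma, adjusted p = 5.58e-05). For AT2G04400, as for MYC2 and MYB51, replicate 1 was the lowest array in each genotype. UGT74B1 shared this only in the wild type (283, 409 and 326). In the double mutant its replicate 1 was the highest (878, 770 and 816). How common such orders are over all probe sets was not computed.

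**Figure D3:**
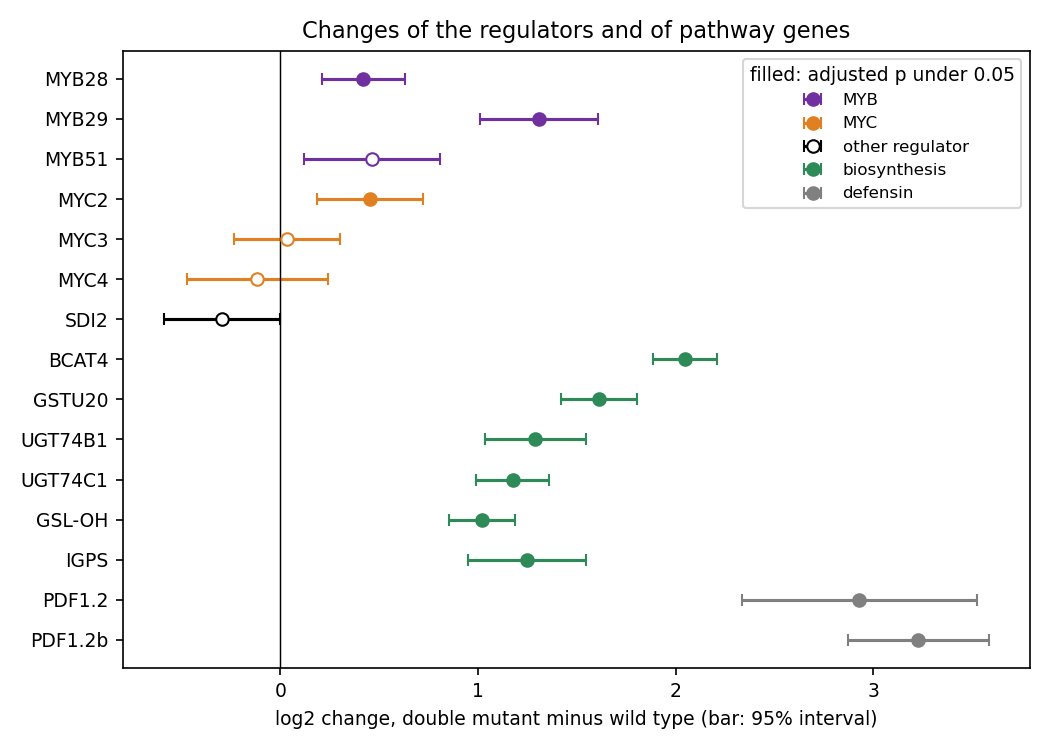
Log2 change, double mutant minus wild type (x axis), with 95% intervals, for the 6 regulators, SDI2, the tested glucosinolate biosynthesis genes (IGPS is AT2G04400) and 2 plant defensins. Filled points passed an adjusted p of 0.05. The biosynthesis genes lie between 1.02 and 2.05, MYB29 at 1.31, and MYB28, MYB51 and MYC2 between 0.42 and 0.46.

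MYC2 is known to hold back the branch of jasmonate responses that is driven together with ethylene. Of 7 genes listed for that branch 2 were tested, the plant defensins PDF1.2 and PDF1.2b, and both rose, with log2 changes of 2.93 and 3.23 (limma, adjusted p = 1.34e-05 and 5.10e-08). PDF1.2 had 1309, 2948 and 3560 in the double mutant and 404, 279 and 276 in the wild type. PDF1.2b had 2050, 3214 and 3149 in the double mutant and 342, 312 and 237 in the wild type. For both defensins and for MYC2, double-mutant replicate 1 was the lowest array of its genotype. In the wild type, replicate 1 was the highest array for both defensins and the lowest for MYC2. How common such orders are over all probe sets was not computed, and a link between MYC2 and the defensins was not tested. The name of the PDF1.2b probe set ends in _x_at, which marks probes that may cross-hybridise with similar genes.

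The tested genes whose pattern over the 6 arrays was most like each member were sought among 7464 tested probe sets that name 1 gene, by Pearson correlation of log2 signal. With 6 arrays and this many candidates high values are found for any gene, so they are a description only. For MYB29 they were AT4G24130 (0.996), the glutathione reductase gene GR1 (0.994) and AT1G29310 (0.991). For MYB28 they were AT1G75510 (0.993), AT2G29995 (0.988) and AT1G69610 (0.987), and for MYB51 AT1G56300 (0.993), AT5G39670 (0.989) and AT5G41950 (0.985). For MYC2 they were AT5G57150 (0.994), AT5G38710 (0.993) and AT4G16260 (0.993). AT4G16260 had 57.7, 196 and 302 in the double mutant. Its low value in replicate 1 comes with its being picked for likeness to MYC2. For MYC3 they were AT5G62890 (0.986), AT5G02050 (0.983) and AT4G32605 (0.981), and for MYC4 AT1G54290 (0.992), AT2G40800 (0.987) and AT5G65440 (0.985).

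The tissue label was checked on the few markers with a named probe set. The 2 leaf markers, RCA and SBPASE, summed to between 7658 and 9296 in the double mutant and between 8547 and 10481 in the wild type. SBPASE fell by 0.33 on the log2 scale (limma, adjusted p = 0.0245), a call that was lost without any single array except double-mutant replicate 1. In the fits that lost the call its log2 change lay between -0.36 and -0.26. RCA differed by 0.02 (adjusted p = 0.950). Of 5 root markers 2 were named, EXPA7 and EXPA18, with signals of 1.60 to 12.7 in the double mutant and 1.14 to 9.66 in the wild type, under the 40th percentile on every array. None of the 5 floral markers was named. Whether the mix of tissues plays a part in the changes of the regulators was not tested.

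**Figure D4:**
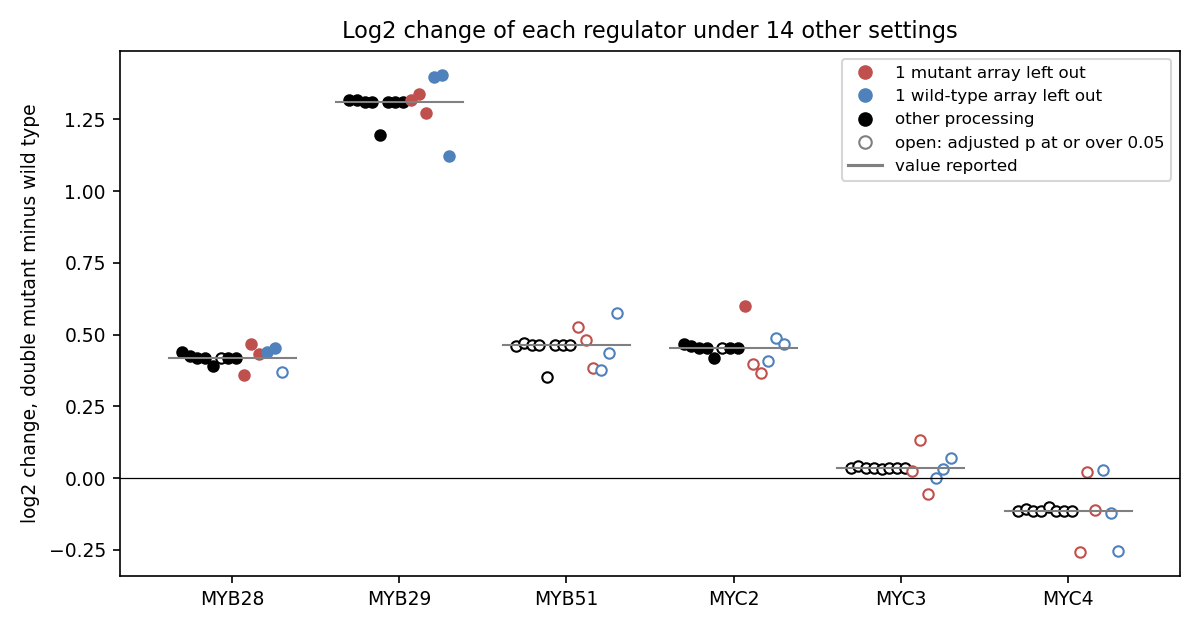
Log2 change of each regulator, double mutant minus wild type (y axis), under 14 other settings (points) and as reported (grey line). Red and blue points leave out 1 double-mutant or 1 wild-type array, black points change the processing, and open points did not pass an adjusted p of 0.05. MYB29 passed throughout, between 1.12 and 1.41, and MYB51, MYC3 and MYC4 never did.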

How the data were processed

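RNA of 6 rosette samples, 3 per genotype, was hybridised to 1-colour ATH1 arrays. The deposited values are linear signal intensities made by the authors with MAS5 and GCOS (versions not given), per the submitters' processing notes. The authors had scaled the arrays, since trimming 2% of values at each end leaves a mean of 100.01 on each. Detection calls were not used, so no probe set is called absent. Scaling to 1 mean assumes equal total signal in both genotypes. For arrays, their number limits the precision.

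The 64 control probe sets were left out, and probe sets were tested where 3 or more arrays had a signal at or above the array's 40th percentile. Array medians differed by 0.08 on the log2 scale, under the limit of 0.2, so no further normalization was applied. The log2 intensities, computed here from the deposited values, were modelled on genotype in R 4.3.3 with limma 3.58.1, using a trended variance prior (lmFit, eBayes). Intervals are from that fit, unadjusted. The fit was also run on simulated data. There each value was drawn independently, so that run cannot speak to the dependence on single arrays.

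The labels do not say that replicates were grown separately, beyond separate pools, so p-values measure the spread between these pools. Named genes were the 6 members, every tested gene of 6 lists on glucosinolates and jasmonate, and the 3 genes most correlated with each member. Members and lists were chosen with earlier results of these data known. The annotation table gives a single gene for 13513 probe sets and several for 503, and 8730 are not in it; apart from the members, names come only from the first kind. Where a gene had more than 1 probe set the brightest stood for it. Genome positions are left out, since the values name no build. Alternatives were quantile normalization, median centring, filters on dim probe sets, an offset of 16, other variance priors, the replicate block and leaving out each array (then 3 of the remaining arrays had to reach the 40th percentile).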

Additional observations from a re-analysis of the deposited data

How the results depend on the processing

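Over 14 settings MYB29 always passed and MYB51, MYC3 and MYC4 never did. A variance prior without a trend ended the calls of MYB28 (log2 change 0.42, adjusted p = 0.0636) and MYC2 (0.45, adjusted p = 0.119), left 1 of the 6 regulators called and 880 of all probe sets, against 1571. Leaving out 1 array gave log2 changes of 0.36 to 0.47 for MYB28, 1.12 to 1.41 for MYB29, 0.38 to 0.58 for MYB51, 0.37 to 0.60 for MYC2, -0.054 to 0.13 for MYC3 and -0.26 to 0.028 for MYC4. It left 1 to 3 regulators and 993 to 1538 probe sets called (limma). The count of probe sets was 993 without double-mutant replicate 3 and 1026 without wild-type replicate 3, and the 1 regulator was MYB29, without wild-type replicate 3. The cause of these drops was not tested.

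The difference between the mean MYB and mean MYC log2 changes, 0.61, was 0.53 with an offset of 16, which shrinks changes by construction, and 0.58 to 0.63 without 1 array. Leaving out a member, added after the values were seen, gave 0.76 without MYB28, 0.32 without MYB29, 0.74 without MYB51, 0.77 without MYC2 and 0.49 without MYC4. Of the ratios, that of MYB51 to MYC2 changed sign with quantile normalization (-0.0065) and with the offset (-0.064), and lay between -0.073 and 0.11 without 1 array; that of MYB28 to MYC2 lay between -0.24 and 0.070. The change of RCA was -0.026 with quantile normalization and -0.054 to 0.14 without 1 array. The call of SBPASE ended in 7 settings, including without 5 of the arrays in turn (adjusted p up to 0.132). Other scalings changed no call of the regulators.

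Arrays of both genotypes share replicate numbers. Deviations of same-numbered arrays correlated at 0.08, 0.08 and 0.11, and those of differently numbered arrays at -0.083 to -0.0034. The former were not all over 0.1, so the main fit did not pair the arrays. That limit does not settle whether the numbers mark pairs. With the replicate block the adjusted p (limma) was 0.0117 for MYB28, 7.78e-05 for MYB29, 0.0591 for MYB51 and 0.0121 for MYC2. With it 3 regulators were called, as without it. Over all probe sets 1789 were called with the block, against 1571 without it. MYB51 had a larger SE (0.16) than MYB28 (0.10) and MYC2 (0.12), whose changes of 0.42 and 0.45 were called while its 0.46 was not.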
